A study of Mus musculus with 46 samples.

Results

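The genes of purine, pyrimidine and deoxynucleotide synthesis were followed in cultured thyroid tumour cells of mice. These were 36 enzymes and regulatory subunits, chosen by name from the pathways and not by their values, though with earlier results of these data known. All 36 were listed both in the table of the tumour cell lines, with 14360 genes, and in the table of the Max addback experiment, with 14056 genes. The mice carried conditional mutations switched on by a tamoxifen-inducible Ascl-CRE, and the lines were grown in DMEM with 10% serum. The RP group was 4 lines with the genotype Rb/p53 mutant. The RPM group was 4 lines with the genotype Rb/p53/Max mutant, so loss of Rb and p53 was common to every library. The empty vector group was 3 libraries of 1 Rb/p53/Max mutant line transduced with a control vector, and the Max addback group was 3 libraries of that line transduced with a vector expressing Max. By its library name, that line was also the source of RPM replicate 2. Another 32 libraries, made from tumours, are not analysed here. Nothing in the labels says that the 3 libraries of an addback group came from separate cultures, so p-values there measure only the spread between these libraries, which may be technical.

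Purine nucleotides are built on phosphoribosyl pyrophosphate (PRPP) up to inosine monophosphate (IMP), which is then turned into AMP or GMP. Pyrimidine synthesis first makes orotate, which becomes UMP and later CTP. Ribonucleotide reductase makes the deoxynucleotides for DNA from ribonucleoside diphosphates, and salvage enzymes recover bases and nucleosides. MAX is the partner with which the transcription factor MYC binds DNA at E-boxes, of which CACGTG is the canonical form, and MAX also pairs with repressors of the MXD family and MNT. Nucleotide synthesis genes are widely used as examples of MYC-responsive genes.

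Libraries held 6738614 to 8498396 reads over the listed genes. In counts scaled to library size (CPM), Max itself had 65.2, 44.7, 50.8 and 57.5 in the RP lines, in replicate order, against 80.9, 103, 68.9 and 100.5 in the RPM lines. Such a count over the whole gene does not check the deletion, because the sources do not say which exons were deleted. In the addback experiment Max stood at 86.3, 83.1 and 96.0 CPM with empty vector and at 251, 249.6 and 220.3 CPM with Max addback. Addback replicate 3 stood apart from its group, at 16.3 and 13.8 (chi-square of read counts divided by its degrees of freedom) against the other two, which were 1.88 apart. The 4 Y-linked genes examined summed to 410.1 to 423 CPM with empty vector and to 275 CPM in RPM replicate 2, but to 0 to 0.257 CPM in the addback libraries, so the addback and empty vector cells also differed in Y-linked transcripts. These were near 0 in RP replicate 2 (0.120 CPM) and RPM replicate 3 (0 CPM) too, and 106 to 254 CPM in the remaining lines. Whether the addback cells come from the labelled line was not tested, and a difference in the cells cannot be told apart from Max addback in any addback result below. Of 14 C cell and neuroendocrine markers, 13 were listed, and 11 rose and 1 fell with addback, against 27.7% and 25.5% of all genes. The summed level of these 13 was 5646 to 5980.02 CPM with empty vector and 10339.6 to 11807 CPM with addback, and in the lines, where none passed the test, it ran from 5567 to 7903 CPM in RP and from 5369 to 24477 CPM in RPM. Within the addback sums Scg2 alone went from a mean of 1102 to 4066 CPM. Calca, the highest of the 13 with empty vector, went from 2788 to 2560 CPM and did not pass the test (adjusted p = 0.411, limma). Of 7 thyroid follicular cell markers the table of the lines listed 2 (Slc5a5 and Duox2, summed to 3.49 to 24.0 CPM) and that of addback listed 3 (summed to 2.24 to 3.55 CPM), and neither listed Tg or Tshr. Of 8 fibroblast markers 4 were listed, summed to 37.5 to 163 CPM in RP, 24.6 to 189 CPM in RPM, 33.7 to 44.3 CPM with empty vector and at most 20.9 CPM with addback; with addback Pdgfrb and Thy1 rose and Col1a1 and Dcn fell. Of 6 leukocyte markers only Cd68 was listed, and Ptprc was in neither table; the 1 or 2 endothelial markers listed of 5 stood below 4 CPM in sum. The part of these cells in the results was not tested.

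Promoter windows of the genes, from 250 bases before to 50 after the start, came from RefSeq on GRCm38.p6, the assembly also called mm10, and 33 of the 36 genes had at least 1 window. The canonical E-box CACGTG, which reads the same on both strands, was found for 6 of the 33, which is 18.2%, against 8.09% of the 27025 genes with a window. The sites are shown because this is the sequence at which MYC and MAX bind. Capitals mark the E-box, and each sequence is written 5′ to 3′ on the strand of its gene.
Paics, chr5:76951087-76951116, plus strand: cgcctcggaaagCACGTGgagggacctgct
Atic, chr1:71557137-71557166, plus strand: ggacctcggggtCACGTGgggtcgacacgc
Impdh2, chr9:108560314-108560343, plus strand: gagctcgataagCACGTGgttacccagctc
Tyms, chr5:30073669-30073698, minus strand: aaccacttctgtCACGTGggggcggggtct
Dtymk, chr1:93802065-93802094, minus strand: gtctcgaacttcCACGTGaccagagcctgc
Nme1, chr11:93968273-93968302, minus strand: gctgcggggaacCACGTGaggccggggagc
Nme1, chr11:93968037-93968066, minus strand: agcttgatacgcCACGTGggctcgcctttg
Distances are from the RefSeq starts, which differ from the GENCODE gene starts given below. In Atic the E-box began 7 bases before the start, and in Nme1, which has 2 listed starts, it began 18 and 29 bases before them. It began 61 bases before the start in Tyms, 110 in Impdh2, 148 in Dtymk and 203 in Paics. By GENCODE, the E-box of Paics lies within an exon of Ppat, a gene that runs the other way from nearly the same place. Those of Atic and Impdh2 and the first of Nme1 touch an annotated exon of their own gene, the second of Nme1 lies within the gene outside its exons, and those of Tyms and Dtymk lie outside any gene.

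The full upstream stretches of Tyms and Dtymk are shown as a pair, because both act on thymidine nucleotides, both hold 1 E-box outside any annotated exon, and Dtymk passed the addback test below while Tyms did not. Tyms makes dTMP and Dtymk phosphorylates it.
Tyms, chr5:30073626-30073875, minus strand: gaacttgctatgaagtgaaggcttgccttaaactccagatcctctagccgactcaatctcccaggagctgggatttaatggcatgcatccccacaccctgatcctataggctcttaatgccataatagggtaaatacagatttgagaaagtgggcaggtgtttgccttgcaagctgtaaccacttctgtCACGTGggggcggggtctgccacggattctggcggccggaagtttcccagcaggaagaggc
Dtymk, chr1:93801935-93802184, minus strand: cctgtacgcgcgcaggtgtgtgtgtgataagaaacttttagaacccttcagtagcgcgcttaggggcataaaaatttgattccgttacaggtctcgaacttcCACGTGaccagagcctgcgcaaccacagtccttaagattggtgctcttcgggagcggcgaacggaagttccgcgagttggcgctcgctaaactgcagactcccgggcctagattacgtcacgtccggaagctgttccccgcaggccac
E2F factors, which drive genes of DNA synthesis, bind a different motif. The forms TTTCCCGC, TTTGGCGC, TTTCGCGC and TTTGCCGC, searched on both strands, occurred in the windows of Prps2 and Ppat, 6.06% of the 33 genes against 2.6% of all genes. A match in a window is a description of its letters and not evidence of binding, and no E-box and E2F form overlapped.

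**Figure D1:**
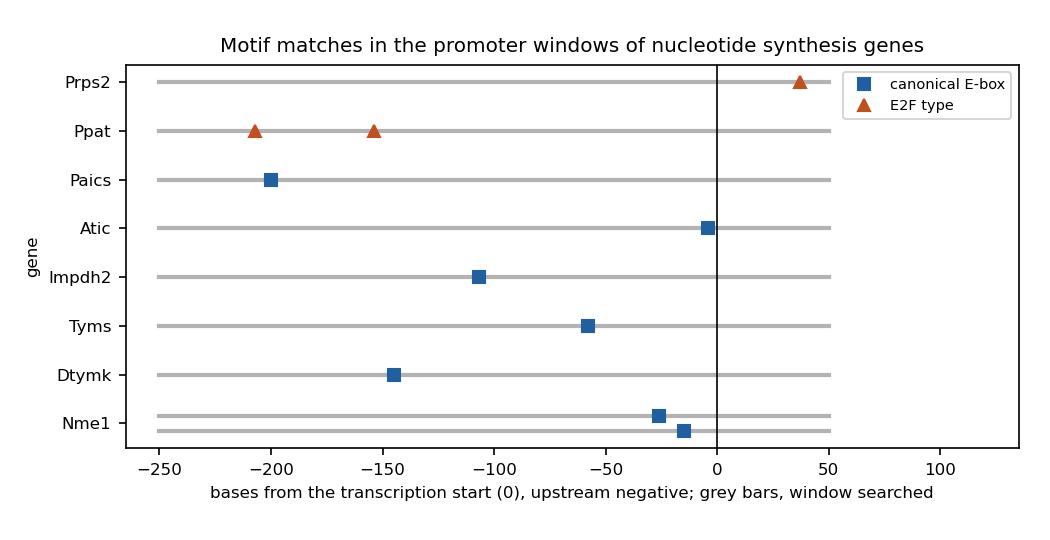
Positions of the middle of each E-box (squares) and E2F form (triangles) in the promoter windows of the genes that hold one, in bases from the RefSeq transcription start (x axis); grey bars show the windows searched. The E-boxes of Atic and Nme1 lie within 30 bases of the start and those of Impdh2, Dtymk and Paics more than 100 bases before it.

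The comparison of RPM with RP lines asked how these genes differ between tumour lines with the Rb/p53/Max mutant and the Rb/p53 mutant genotype. Dctd, the deaminase that turns dCMP into dUMP, was the 1 gene of the 36 that passed the test, and it was higher in RPM lines; none was lower. In all genes tested, 0.209% were called higher and 0.125% lower by limma at an adjusted p under 0.05. The median log2 change of the 36 was 0.16 and that of all genes was -0.01; 25 of the 36 lay above 0. Without RP replicate 2 the median of the 36 was 0.07, without RPM replicate 1 it was 0.09, and without RPM replicate 2 it was 0.09. At an unadjusted p under 0.05 there were 8 genes, all higher in RPM (Ppat, Pfas, Atic, Adss, Cad, Umps, Dctd and Nme2), against 2284 of the 14360 genes in either direction. The groups did not overlap at 4 of the 36 (Ppat, Pfas, Dctd and Nme2), all higher in RPM, against 9.37% of all genes. All values below are CPM, normalised by the authors with TMM factors, and log2 changes are of CPM + 1. In bulk RNA, fewer cells of a kind and less RNA per cell cannot be told apart.

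**Figure D2:**
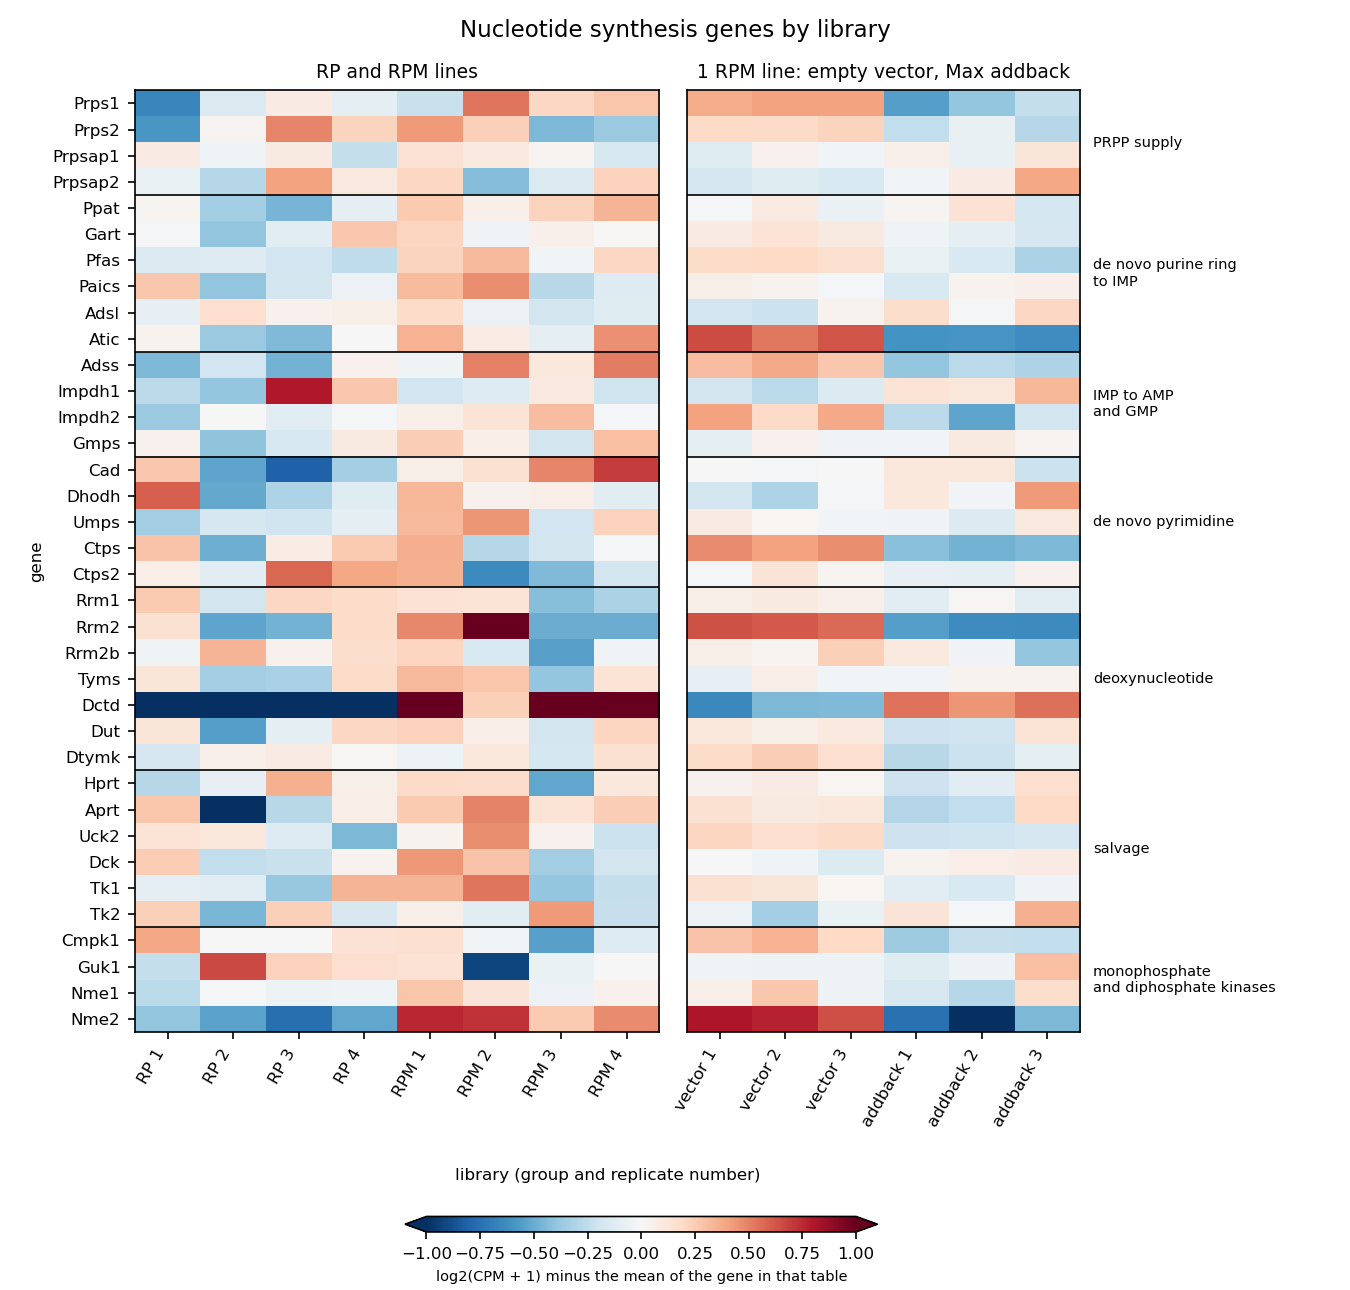
Each cell shows log2(CPM + 1) of a gene (y axis, grouped by role) in a library (x axis) minus the mean of that gene in the same table; colours saturate at 1 log2 unit either way. Dctd and Nme2 separate the RP from the RPM lines, while Atic, Ctps, Rrm2 and Nme2 separate the empty vector from the addback libraries.

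Dctd (GRCm38 chr8:48099092-48153233, plus strand) was all but absent in the RP lines, with 1, 0, 0 and 5 reads in replicates 1 to 4, or 0.120, 0, 0 and 0.589 CPM. RPM replicates 1 to 4 held 123, 26, 71 and 183 reads, or 15.7, 3.24, 8.403 and 22.7 CPM. Every RPM line lay above every RP line, and RPM replicate 2 was the lowest of the 4. The summed CPM were 69.1 times higher in RPM, with a 95% counting interval of 31.5 to 189. The log2 change was 3.28 with a standard error of 0.51 (adjusted p = 0.0466, limma). It passed in 7 of 15 settings; among others, the call was lost without any 1 of the RP replicates 1 to 4, without RPM replicate 3 or 4 and with edgeR's quasi-likelihood test, and the adjusted p ran from 9.99e-07 to 0.169 over the alternatives. In the authors' deposited table Dctd was also the 1 gene of the 36 called, at a log2 change of 6.01 with FDR 4.97e-08; that table called 1.72% of all genes higher and 2.47% lower.

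Nme2, a nucleoside diphosphate kinase that makes triphosphates, came next. The RP lines held 7.82, 6.97, 5.85 and 7.07 CPM and the RPM lines 18.5, 18.1, 12.9 and 15.1 CPM, in replicate order, so the groups did not overlap. The means were 6.93 ± 0.811 and 16.1 ± 2.64 CPM (SD, n = 4 each), from 231 and 521 reads in all. The log2 change of 1.11 did not pass the threshold (adjusted p = 0.0911, limma), though it did with DESeq2 (adjusted p = 4.79e-05). Its partner gene Nme1 (kinase of the same family) stood at 57.9, 69.1, 67.7 and 67.7 CPM in RP lines and 84.9, 76.4, 67.1 and 72.0 CPM in RPM lines, which overlap (log2 change 0.19, adjusted p = 0.461, limma). Both genes share exon bases with the read-through gene Gm20390, 48.9% of the exon bases of Nme2 and 12.5% of those of Nme1, so their values depend on how such reads were counted.

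Cad (chr5:31054780-31078479, plus strand), the multifunctional enzyme that opens pyrimidine synthesis, stood at 272, 157, 129 and 178 CPM in RP replicates 1 to 4. In RPM replicates 1 to 4 it stood at 235, 251, 317 and 367 CPM. RP replicate 1 reached into the RPM range, and the other RP lines lay below it. The log2 change was 0.70 ± 0.24 (SE; adjusted p = 0.242, limma). Umps, which makes UMP from orotate, had 70.1 ± 5.17 and 93.99 ± 16.8 CPM (SD, n = 4 each) and a log2 change of 0.40 (adjusted p = 0.273, limma). Dhodh, the mitochondrial step between them, had 0.17. Ctps, which turns UTP into CTP, stood at 154, 89.6, 133 and 151 CPM in RP lines and 163, 103, 111 and 125 CPM in RPM lines, which overlap (log2 change -0.06, adjusted p = 0.903, limma). Its paralog Ctps2 had -0.46 (adjusted p = 0.383, limma).

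None of the 6 enzymes of the purine ring passed the test among lines, and 3 had an unadjusted p under 0.05. Ppat, the amidotransferase of the committed step, stood at 103, 79.2, 72.4 and 94.2 CPM in the RP lines and 120.5, 104, 118 and 127 CPM in the RPM lines, with the lowest RPM line just above the highest RP line. Its log2 change was 0.44 (adjusted p = 0.215, limma). Pfas, which acts later on the same ring, ran from 95.9 to 105 CPM in RP and from 112 to 143 CPM in RPM (log2 change 0.36, adjusted p = 0.200, limma; 0.0367 with DESeq2). Atic, which closes the ring to IMP, stood at 134, 100.4, 95.8 and 129.9 CPM in RP lines and 166, 137, 122 and 179 CPM in RPM lines, where RPM replicate 3 lies within the RP range (log2 change 0.39, adjusted p = 0.311, limma). Paics, a bifunctional enzyme midway, stood at 321, 202, 234 and 256 CPM in RP lines and 331, 368, 219 and 243 CPM in RPM lines, with wide overlap (log2 change 0.18, adjusted p = 0.687, limma). Gart, the trifunctional enzyme, had 0.12, and Adsl, a lyase used in both arms, had -0.09.

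From IMP onward, Adss, which commits IMP to AMP, had 72.3 ± 12.7 CPM in RP and 106 ± 20.47 CPM in RPM (SD, n = 4 each; log2 change 0.54, adjusted p = 0.233, limma). Impdh2, an IMP dehydrogenase on the way to GMP, stood at 17.6, 23.1, 21.3 and 22.7 CPM in RP lines and 24.1, 25.4, 28.8 and 22.7 CPM in RPM lines, with RPM replicate 4 inside the RP range (log2 change 0.25, adjusted p = 0.499, limma). Impdh1, the more abundant isozyme here, stood at 196, 180.4, 412 and 285 CPM in RP lines and 207, 215, 253 and 206 CPM in RPM lines, with RP replicate 3 the highest of the 8 lines (log2 change -0.21, adjusted p = 0.702, limma). Gmps, which finishes GMP, had 0.22. Of the PRPP synthetases, Prps2 stood at 45.4, 69.6, 96.1 and 80.0 CPM in RP lines and 92.0, 81.0, 49.8 and 52.8 CPM in RPM lines, which overlap (log2 change -0.08, adjusted p = 0.912, limma), and Prps1 had 0.40 (adjusted p = 0.375, limma). The associated subunits Prpsap1 and Prpsap2 had 0.06 and -0.07.

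Among the other deoxynucleotide genes, Rrm2, the small subunit of ribonucleotide reductase, stood at 359, 224, 233 and 368 CPM in the RP lines and 452, 730.4, 229.6 and 229 CPM in the RPM lines, in replicate order. RPM replicate 2 was far above the rest, RPM replicate 1 came next, and the other two RPM lines lay in the RP range. The log2 change was 0.33 ± 0.39 (SE; adjusted p = 0.698, limma), and it was -0.00409 without RPM replicate 2 and 0.55 without RPM replicate 4. The 19 cell cycle markers examined summed to 7641 CPM in RPM replicate 2 and 6311 CPM in RPM replicate 1, against 5368 and 5478 CPM in RPM replicates 3 and 4 and 4409 to 6587 CPM in the RP lines; their part in the Rrm2 values was not tested. Tyms stood at 110.0, 79.5, 80.7 and 115 CPM in RP lines and 127, 123, 77.2 and 111 CPM in RPM lines, which overlap (log2 change 0.18, adjusted p = 0.681, limma). Rrm1, the large subunit, had -0.24, and Rrm2b, the p53-inducible small subunit, had -0.26. Dut, which removes dUTP, had 0.16, and Dtymk had 0.01. The 6 salvage enzymes (Hprt, Aprt, Uck2, Dck, Tk1 and Tk2) ran from -0.02 to 0.57, and the kinases Cmpk1 and Guk1 had -0.27 and -0.41.

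The spread among lines of a group was close to that of other genes. The median SD of log2(CPM + 1) over the 36 was 0.272 in RP and 0.284 in RPM lines, against 0.294 and 0.337 over all genes. In the addback experiment it was 0.0607 with empty vector and 0.115 with addback, against 0.0900 and 0.158. Aprt, which salvages adenine, spread most among RP lines (SD 0.657), with RP replicate 2 at 26.6 CPM and the other RP lines at 51.6 to 76.3 CPM. Dctd (1.08) and Rrm2 (0.814) spread most among RPM lines. RPM replicate 1 was the highest RPM line at 17 of the 36 and RPM replicate 3 the lowest at 19. Some tumour libraries with the genotype Rb/p53 mutant carry the same animal identifier as RPM replicate 1. That line was kept in its labelled group, and without it Dctd still passed the test.

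The addback experiment asked how the same genes differ between cells given Max and cells given an empty vector, both labelled as 1 RPM line. Of the 36, 13 fell and 2 rose with addback, and 21 did not pass the test, while 25.5% of all genes fell and 27.7% rose (limma, adjusted p under 0.05). The genes that fell were Nme2, Rrm2, Atic, Ctps, Prps1, Impdh2, Adss, Cmpk1, Prps2, Dtymk, Uck2, Pfas and Gart, in order of size from -1.48 to -0.20 on the log2 scale. Dctd and Impdh1 rose. The median log2 change of the 36 was -0.15, against -0.00188 for all genes. The groups did not overlap at 20 of the 36, 15 lower and 5 higher with addback, against 61.9% of all genes. By the calls in the authors' deposited table, 7 of the 36 were called lower (Prps1, Atic, Adss, Impdh2, Ctps, Rrm2 and Nme2) and 1 higher (Dctd), against 13.1% and 18.9% of all genes. That call took more than an FDR under 0.05, so these counts and limma's rest on unlike thresholds. Without a call, Cmpk1, Prps2, Pfas, Dtymk, Uck2 and Impdh1 had authors' FDR values of 1.16e-05 to 0.00422. Dhodh (0.0192) and Tk2 (0.0492) were also under 0.05 there and not called.

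These counts moved with the scaling. Scaled by library total without the TMM factor, 12 fell and 7 rose, the median of the 36 was -0.07, and the median of all genes shifted by 0.07; Adsl, Dck, Dhodh, Prpsap2 and Tk2 then rose and Gart lost its call. Without addback replicate 3, the library that stands apart, 18 fell and 3 rose, with Aprt, Dut, Hprt, Nme1 and Tk1 added below and Adsl above. Without addback replicate 2, 12 fell, 4 rose and the median was -0.10. Shares of all genes called in these settings are not given here, so these counts cannot be read as particular to the 36. Gart passed the test in 6 of 13 settings, Dctd was removed by a filter at a mean of 1 CPM, and the other 13 genes called passed in each of the 13 settings run.

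**Figure D3:**
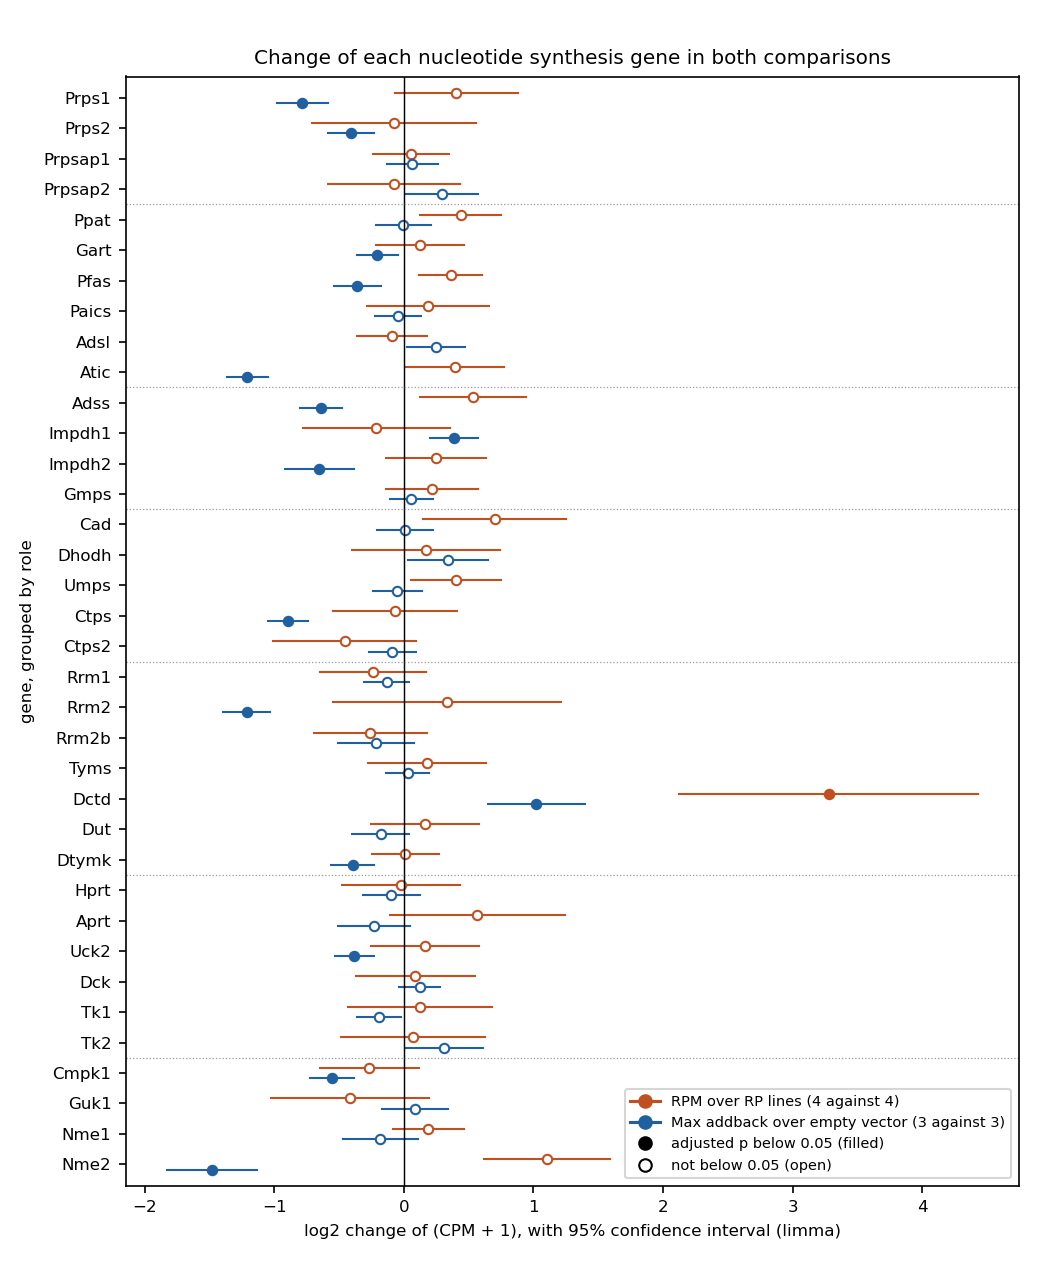
Log2 change of CPM + 1 (x axis) of each gene (y axis, grouped by role) with its 95% confidence interval, for RPM over RP lines (4 against 4) and Max addback over empty vector (3 against 3); filled points have an adjusted p under 0.05. Only Dctd is filled among the lines, and 15 genes are filled in the addback experiment, 13 of them to the left of 0.

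Of the genes of PRPP supply both synthetases fell and their associated subunits did not pass the test. Prps1 (chrX:140456613-140476140, plus strand) went from 157 ± 2.11 to 91.0 ± 9.76 CPM (SD, n = 3 each; log2 change -0.78, adjusted p = 4.59e-05, limma). Prps2 stood at 138, 137 and 140.2 CPM with empty vector and 101, 114 and 98.2 CPM with addback, without overlap (log2 change -0.41, adjusted p = 0.00163, limma). Prpsap1 had a log2 change of 0.07 and Prpsap2 of 0.29 (adjusted p = 0.0734, limma).

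Along the purine ring 3 of 6 enzymes fell, and by far the largest change was at its end. Atic (chr1:71557150-71579631, plus strand) stood at 186, 170.1 and 183 CPM with empty vector and 77.3, 78.0 and 76.2 CPM with addback. The 3 addback values lay within 2 CPM of each other and below every empty vector value (log2 change -1.21 ± 0.07 (SE), adjusted p = 4.95e-07, limma). Pfas fell by 0.36 (adjusted p = 0.00453, limma) and Gart by 0.20 (adjusted p = 0.0342, limma); 19.7% of the exon bases of Gart are shared with an antisense gene. Ppat, at the committed step, stood at 82.6, 88.4 and 79.5 CPM with empty vector and 84.8, 92.3 and 73.6 CPM with addback, the addback values lying on both sides (log2 change -0.00363, 95% interval -0.22 to 0.21). Paics stood at 316, 311 and 299 CPM with empty vector and 274, 311 and 314 CPM with addback, which overlap (log2 change -0.04, 95% interval -0.22 to 0.14). The signs of the Ppat and Paics values turn when the TMM factor is left out. Adsl had 0.25 (adjusted p = 0.0604, limma).

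After IMP the isozymes moved in opposite directions. Impdh2 (chr9:108560286-108565584, plus strand) stood at 35.6, 30.7 and 35.1 CPM with empty vector and 22.1, 18.2 and 23.4 CPM with addback (log2 change -0.65, adjusted p = 0.00121, limma). Impdh1 (chr6:29200434-29216364, minus strand) stood at 142, 134 and 147 CPM with empty vector and 178, 175 and 204 CPM with addback (log2 change 0.39, adjusted p = 0.00294, limma). Neither gene's groups overlapped, Impdh2 being lower and Impdh1 higher with addback, and both directions held without the TMM factor. Adss fell from 160.3 ± 6.37 to 103 ± 4.39 CPM (SD, n = 3 each; log2 change -0.64, adjusted p = 5.29e-05, limma), and Gmps had 0.06.

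In pyrimidine synthesis the one gene of 5 that fell was Ctps. It (chr4:120539868-120570276, minus strand) stood at 169.6, 161 and 168 CPM with empty vector and 91.0, 87.3 and 88.9 CPM with addback, far apart relative to the spread within each group (log2 change -0.89 ± 0.07 (SE), adjusted p = 3.31e-06, limma). Cad stood at 131, 129 and 131 CPM with empty vector and 141, 141 and 112 CPM with addback, replicate 3 below and the others above the empty vector values (log2 change 0.01, 95% interval -0.21 to 0.22). Umps had -0.05, Ctps2 -0.09 and Dhodh 0.34 (adjusted p = 0.0597, limma).

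Among the deoxynucleotide genes Rrm2 and Dtymk fell and Dctd rose, with 4 of 7 not passing the test. Rrm2 (chr12:24708241-24714146, plus strand) stood at 1143, 1120.0 and 1088 CPM with empty vector and 501, 472 and 470.0 CPM with addback, with no overlap (log2 change -1.21 ± 0.08 (SE), adjusted p = 1.16e-06, limma). Its partner Rrm1 had -0.13 (adjusted p = 0.171, limma) and Rrm2b -0.22. Dtymk fell from 192 ± 5.71 to 146 ± 9.50 CPM (SD, n = 3 each; log2 change -0.40, adjusted p = 0.00158, limma). Tyms stood at 109, 121 and 113 CPM with empty vector and 114, 118 and 118 CPM with addback, which overlap (log2 change 0.03, 95% interval -0.13 to 0.19), and Dut had -0.18.

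Dctd was near the limit of detection throughout this experiment, with 0, 1 and 1 reads with empty vector and 10, 9 and 10 reads with addback, or 0, 0.142 and 0.153 CPM and 1.27, 1.12 and 1.29 CPM. With so few reads its log2 change depends on the pseudocount. The groups did not overlap, and the ratio of summed CPM was 12.6 with a 95% counting interval of 3.19 to 109 (log2 change 1.02, adjusted p = 5.88e-04, limma). RPM replicate 2, by its label the untransduced library of the same line, held 26 reads of Dctd, or 3.24 CPM, in a table normalised separately. Dctd was thus higher with addback than with empty vector, and the addback libraries stood below the untransduced line, a difference across tables that was not tested.

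The kinases that complete the nucleotides were led by Nme2 (chr11:93949814-93956259, minus strand), the largest fall of the 36. It stood at 21.7, 21.0 and 19.2 CPM with empty vector and 6.74, 5.35 and 8.48 CPM with addback, the highest addback value lying below the lowest empty vector value (log2 change -1.48 ± 0.16 (SE), adjusted p = 3.13e-05, limma). Here too the value of Nme2 depends on how reads shared with Gm20390 were counted. Nme1 (chr11:93956979-93968521, minus strand) stood at 62.6, 73.0 and 58.3 CPM with empty vector and 53.9, 49.3 and 68.5 CPM with addback, which overlap (log2 change -0.18, adjusted p = 0.267, limma; without addback replicate 3, -0.31 and 0.0037). Cmpk1, the UMP and CMP kinase, fell by 0.55 (adjusted p = 1.88e-04, limma), and the GMP kinase Guk1 had 0.09. Of the 6 salvage enzymes, Uck2, the uridine and cytidine kinase, fell by 0.38 (adjusted p = 9.28e-04, limma). The other salvage values were -0.10 for Hprt, -0.23 for Aprt, 0.12 for Dck, -0.19 for Tk1 (adjusted p = 0.0552, limma) and 0.31 for Tk2.

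**Figure D4:**
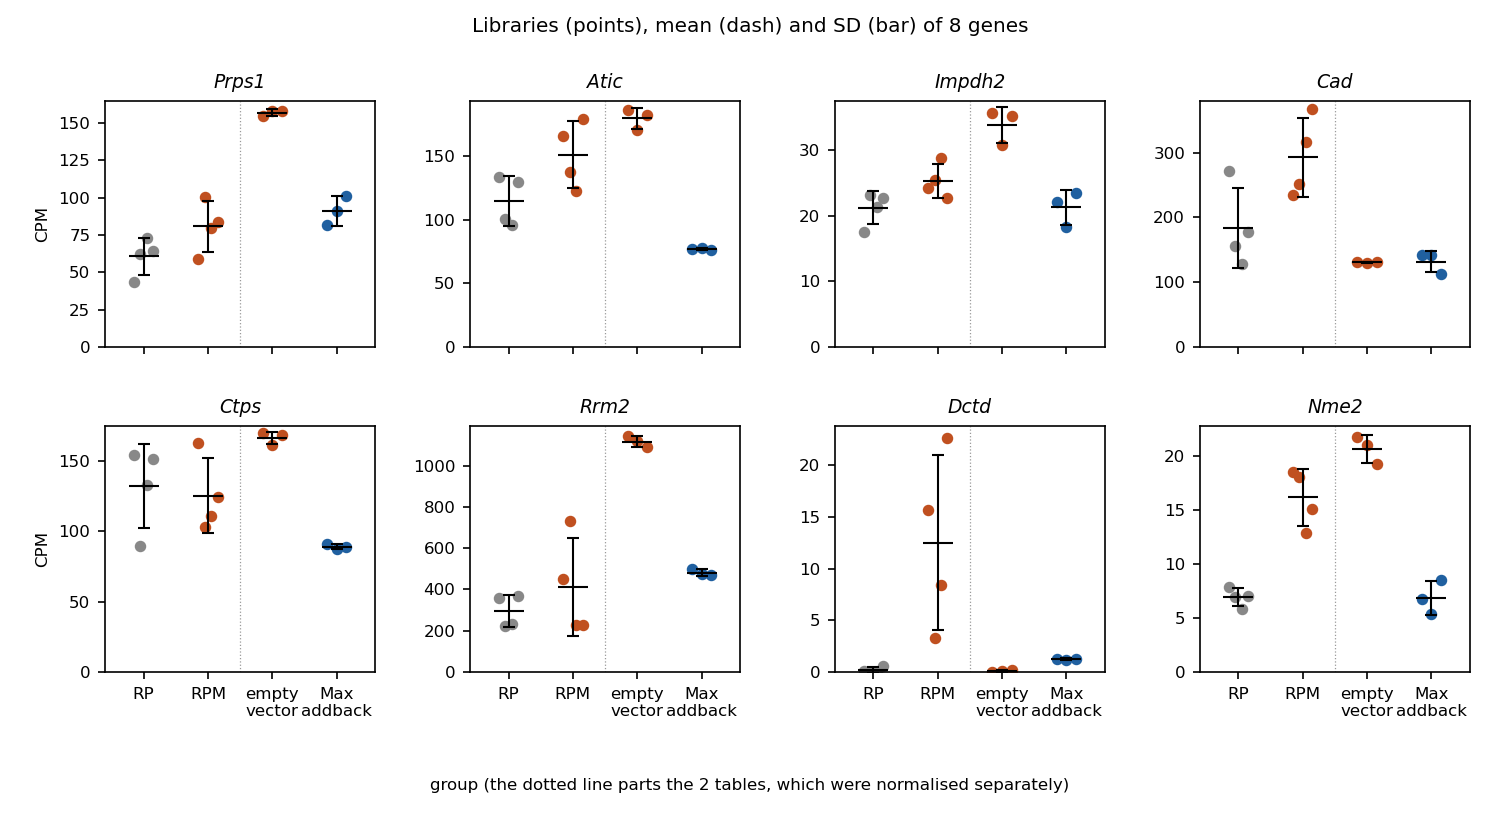
CPM (y axis, from 0) of 8 genes in every library of the 4 groups (x axis); points are libraries, dashes are means and bars SD, and the dotted line parts the tables, which were normalised separately. Atic, Ctps, Rrm2 and Nme2 fall from empty vector to addback without overlap, Cad does not, and Dctd is near 0 in the RP and empty vector libraries.

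Of the 6 genes with an E-box in the window, Atic, Impdh2 and Dtymk fell with addback, and Paics, Tyms and Nme1 did not pass the test. Of the 27 genes with a window and no E-box, 9 fell (Prps1, Prps2, Gart, Adss, Ctps, Rrm2, Uck2, Cmpk1 and Nme2) and 2 rose (Dctd and Impdh1). Of all genes 25.5% fell and 27.7% rose, and no test compared genes with and without an E-box. Tyms and Dtymk, whose upstream stretches are printed above, each hold 1 E-box, and no test of the difference between them was run.

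Whether the addback change mirrored the difference between lines was tested gene by gene, as RPM minus RP set against empty vector minus addback, over the 13528 genes in both tables. Of the 36, 4 differed (Dctd, Atic, Cmpk1 and Ctps), against 15.1% of all genes. For Dctd the values were 3.28 and -1.02 and the difference was 4.30 (95% interval 3.27 to 5.33, adjusted p = 9.46e-05, limma). In Ctps they were -0.06 and 0.89, a difference of -0.96 (95% interval -1.39 to -0.53, adjusted p = 0.00653, limma). For Atic, where both were above 0, they were 0.39 and 1.21, a difference of -0.82 (95% interval -1.19 to -0.45, adjusted p = 0.00680, limma). Cmpk1 had -0.27 and 0.55, a difference of -0.82 (95% interval -1.21 to -0.44, adjusted p = 0.00814, limma). Nme2 had 1.11 and 1.48, and the difference of -0.37 (95% interval -1.02 to 0.27, adjusted p = 0.443, limma) did not pass the test. Cad had 0.70 and -0.01, a difference of 0.71 (95% interval 0.15 to 1.27, adjusted p = 0.0812, limma), and it passed without RP replicate 1 and without addback replicate 3. Without addback replicate 3 the count was 7, with Cad, Dtymk and Ppat added. The lines comparison and the addback comparison share no library, but by their labels RPM replicate 2 and the addback experiment share a line.

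Levels of different genes were compared per gene length, in RPKM. With empty vector Rrm2 was the highest of the 36 at 403 ± 9.95 RPKM, ahead of Hprt at 215 ± 5.06 RPKM and Paics at 98.3 ± 2.66 RPKM (SD, n = 3 each). With addback Hprt stood at 202 ± 27.7 and Rrm2 at 174 ± 6.17 RPKM, a gap about as wide as the SD of Hprt, and Paics again next at 95.6 ± 7.16 RPKM. In RP lines Hprt (134.6 ± 25.9 RPKM) and Rrm2 (107 ± 28.2 RPKM) led, as did Rrm2 (148 ± 85.8 RPKM) and Hprt (133 ± 28.1 RPKM) in RPM lines (SD, n = 4 each), and in neither group did the pair differ beyond its spread. Dctd was the lowest of the 36 in RP, empty vector and addback libraries, and in RPM lines Rrm2b (3.44 ± 0.745 RPKM) and Dctd (3.67 ± 2.49 RPKM) were the lowest and did not differ beyond their spread.

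The balance between paralogs was taken as the ratio of their RPKM within each library. Impdh1 over Impdh2 ranged over 3.74 to 4.08 in empty vector libraries and 7.50 to 8.99 in addback libraries, without overlap, and 7.30 to 18.03 in RP and 7.91 to 8.47 in RPM lines. Nme1 over Nme2 was 1.01 to 1.22 with empty vector against 2.80 to 3.23 with addback, and 1.48 to 1.82 in RPM against 2.59 to 4.05 in RP lines. It was the 1 ratio of the 6 with no overlap between the groups of either comparison. Because both genes share exon bases with Gm20390, this ratio depends on how such reads were counted. Ctps over Ctps2 was 2.93 to 3.42 in empty vector and 1.72 to 1.92 in addback libraries, and the lines overlapped at 2.12 to 3.51 (RP) and 3.02 to 3.88 (RPM). Rrm2 over Rrm2b, the proliferative against the p53-inducible subunit, was 87.3 to 104 in empty vector and 44.5 to 58.8 in addback libraries. Prps1 over Prps2 was 2.18 to 2.24 and 1.55 to 2.00, and Tk1 over Tk2, the cytosolic over the mitochondrial thymidine kinase, 3.39 to 4.44 and 2.40 to 2.87, in the same order and without overlap. No test was run on these ratios.

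Lists of neighbouring genes were described by their counts alone, first with addback. There 27.7% of all genes rose and 25.5% fell (limma, adjusted p under 0.05). Of 13 genes of nucleoside transport and folate supply, 9 fell and 0 rose, with a median log2 change of -0.72; the largest were Shmt1 at -1.36 (adjusted p = 3.25e-07, limma), a serine hydroxymethyltransferase that charges folate, and Slc25a33 at -1.03 (adjusted p = 1.62e-04, limma), a mitochondrial pyrimidine nucleotide carrier. Of 17 listed genes of nucleotide breakdown, 5 rose and 3 fell, led by Xdh at 5.51 (adjusted p = 2.86e-09, limma), xanthine dehydrogenase, with means of 0.0509 and 46.9 CPM, and Tymp at 0.98 (adjusted p = 7.72e-04, limma), thymidine phosphorylase, and on the lower side by Ampd3 at -0.68 (adjusted p = 1.49e-04, limma) and Nt5c at -0.67 (adjusted p = 5.09e-04, limma), an AMP deaminase and a nucleotidase. Of 18 further salvage and kinase genes, 7 rose and 5 fell, with Upp1 at 2.69 (adjusted p = 7.23e-07, limma), uridine phosphorylase, and Nme5 at 2.17 (adjusted p = 1.70e-04, limma) leading the rises. Among the falls was Mtap at -1.001 (adjusted p = 1.13e-05, limma), which salvages methylthioadenosine. In the lines comparison, with 18 further salvage, 20 breakdown and 13 supply genes listed, 0 passed limma's test, and 3, 3 and 4 of them had an unadjusted p under 0.05, as did 2284 of all 14360 genes. Without the TMM factor the supply genes gave 1 higher and 8 lower with addback. Without addback replicate 3 the breakdown genes gave 6 higher and 7 lower and the further salvage genes 7 higher and 9 lower. Shares of all genes called in these settings are not given, so these counts cannot be set against 27.7% and 25.5%.

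Cell cycle markers moved with the addback result. Of 19, 11 fell and 3 rose, against 25.5% and 27.7% of all genes. The median log2 change of the 19 was -0.33 (10 fell and 3 rose without the TMM factor, 14 and 3 without addback replicate 3). For those alternatives the shares of all genes called are not given. The summed level of the 19 was 8459 to 8654 CPM with empty vector and 6004 to 7230 CPM with addback, without overlap. Much of this fall lay in Mki67 and Top2a. Top2a went from a mean of 2167 to 1541 CPM. Mki67 went from 2308 to 1686 CPM and did not pass the test (adjusted p = 0.0715, limma). It stood at 1958, 2030 and 1069 CPM in addback replicates 1 to 3. Each of the 19 had more than 3 reads in every library. The summed level of the 36 nucleotide genes was 5440.3 to 5564 CPM with empty vector and 4168 to 4404 CPM with addback. Within that sum Rrm2 alone went from a mean of 1117 to 481 CPM, and 21 of the 36 did not pass the test. The part of the cell cycle markers in the fall of Rrm2 and of the other nucleotide genes that fell was not tested.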

How the data were processed

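RNA-seq was analysed in 14 libraries of cultured thyroid tumour cells; 32 tumour libraries were not used. Per the submitters' processing notes, bcl2fastq 1.8.4, TopHat2 2.1.0, HTSeq 0.6.1 and edgeR were used with build mm10, and the sources used here do not say whether counting used strand. The authors deposited, per the file headers, a TMM-normalised signal (CPM, counts scaled to library size) and RPKM values, with log2 fold changes, FDR values (adjusted p-values) and a call score of 1, 0 or -1. The 2 tables were normalised separately. All deposited CPM values gave whole reads within 0.1 read, so depth was recovered (6738614 to 8498396 reads; 3 reads are 0.353 to 0.458 CPM). Intervals on reads cover counting error only.

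Groups were tested with limma 3.58.1 (moderated test with trend, R 4.3.3) on log2(CPM + 1), which understates the change of low genes, and p-values were adjusted over all genes in a table by Benjamini-Hochberg, with calls at 0.05. The difference between the comparisons was fitted over both tables with array weights. The test was also run on simulated counts with the same spread for every gene and library of a table, with outcomes not given here. That check does not cover a library that stands apart, such as addback replicate 3. Alternatives were a pseudocount of 0.5, a mean of at least 1 CPM, no TMM factor, edgeR 4.0.16 and DESeq2 1.42.0 on recovered reads, a replicate block and leaving out each library. The members, lists and tests were chosen with earlier results of these data known. Genes named with every library's value were Prps2, Ppat, Paics, Impdh2, Cad, Ctps, Rrm2, Tyms, Nme1, Nme2 and the 3 largest called genes in each direction; from other lists, the 2 largest called in each direction, of which 1 gene is not reported here. Gene positions are from GENCODE on GRCm38 and promoter windows from RefSeq on GRCm38.p6.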

Additional observations from a re-analysis of the deposited data

Results flagged for a closer look

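Of the 72 sets of 4 lines examined (36 genes in RP and in RPM), 2 held a line far from the others, with a gap over the whole range above the 95% critical value of 0.829; chance gives about 1 in 20. Nme1 stood at 57.9 CPM in RP replicate 1, below the other RP lines (gap over range 0.869). Hprt stood at 118 CPM in RPM replicate 3, below the other RPM lines (gap over range 0.850).

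The change differed between the comparisons for 4 genes by limma's test of the difference, RPM minus RP set against empty vector minus addback on the log2 scale. The differences were 4.30 for Dctd, -0.82 for Atic, -0.82 for Cmpk1 and -0.96 for Ctps.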

How the results depend on the processing

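Of the values for whole comparisons, 78 alternatives stayed close and 17 moved, by a set limit on the ratio of counts or the shift of a median. Of the alternatives for named genes, 309 kept the sign and the call, 8 lost the call, 2 gained one and 18 changed sign. The size of the change was not checked for named genes. None of these 18 was of a gene that passed the test in the same comparison, though some passed it in the other. Among lines, the number of genes of the 36 called higher was 1, but 0 with edgeR, 3 with DESeq2 (Dctd, Nme2 and Pfas) and 0 to 1 with a library left out; the number called of all genes was 48 with limma, 3 with edgeR and 658 with DESeq2. With addback the number called higher was 2, but 1 with the filter on mean CPM, 7 without the TMM factor and 2 to 4 with a library left out. The addback median was -0.0746 without the TMM factor and -0.152 to -0.102 with a library left out. Between 4 and 7 genes differed between the comparisons with a library left out. Shares of all genes called are not given for the alternatives of the addback experiment or of this difference. For Ppat the addback change was 0.0760 without the TMM factor, 0.00104 with edgeR, 0.00428 with DESeq2 and -0.0774 to 0.0835 with a library left out. For Paics it was 0.0371 without the TMM factor and -0.0786 to 0.0202 with a library left out. With a library left out, the addback changes ran from -0.0482 to 0.116 for Cad and from -0.00393 to 0.0707 for Tyms. The changes among lines then ran from -0.282 to 0.0730 for Prps2, -0.376 to 0.0198 for Impdh1, -0.239 to 0.0208 for Ctps and -0.00409 to 0.552 for Rrm2. The causes were not tested.

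With the replicate number as a block (replicate block), 0 genes were called among lines, so that Dctd lost its call, and 5 higher and 12 lower with addback. The numbers were given no meaning by the labels, and same-numbered libraries deviated together at correlations of 0.0114 to 0.406 among lines and 0.0202 to 0.0813 in the addback experiment, so pairing was not taken as given; not every library correlated best with its own number. Depth limits Dctd, which had 0 to 5 reads in RP and empty vector libraries.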
